A study of Oryza sativa with 12 samples.

Results

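Rice embryos that germinated without air were compared with embryos that germinated in air, both fed glucose. The comparison used 4 of the 12 arrays in the series, GlcAC replicates 1 and 2 and Glc replicates 1 and 2, chosen by the labelled condition. All embryos were of Oryza sativa cv. Dongjin, cut from whole seeds and kept for 24 h at 28 °C in darkness in a solution with 10 mM calcium chloride. GlcAC embryos lay submerged in medium with 60 mM glucose that had been flushed with nitrogen gas, and Glc embryos lay in air on paper soaked with the same medium. The labels do not spell out AC, which is read here as the anaerobic incubation of the protocol. Submersion therefore came together with the loss of oxygen, and the 2 cannot be told apart. For comparison, MtlAC and Mtl embryos received the same incubations with 60 mM mannitol, a sugar alcohol, in place of glucose, and GlcDNP embryos lay in air with glucose and 0.08 mM 2,4-dinitrophenol (DNP), an uncoupler of mitochondrial respiration. One incubation held about 150 to 200 embryos. The design text names 2 technical replicates and 6 rice samples, so the 2 arrays of a condition may hold RNA of 1 pool, and the p-values measure the spread between arrays only.

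Rice is known as a cereal that germinates without oxygen, pushing out a coleoptile while root and leaf growth wait. When oxygen is missing, respiration stops at the terminal oxidases of the mitochondria, and ATP comes from glycolysis, with pyruvate decarboxylase and alcohol dehydrogenase turning pyruvate into ethanol and returning NAD+. Starch breakdown by alpha-amylase supplies this pathway with sugar in the seed, and the alpha-amylase gene RAmy3D is known to be switched on by sugar shortage.

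The values are log2 expression levels from the array software, so that a difference of 1 equals a 2-fold change. They compare 1 probe set, called a probe here, between conditions, and levels of different probes are not comparable. A probe was called when the limma adjusted p was under 0.05 and the log2 difference GlcAC minus Glc was at least 1 in size. Of 36643 probes 735 were called higher in GlcAC and 1190 lower, which is 2.01% and 3.25% of all probes, 1925 or 5.25% together. The median log2 difference over all probes was 0.025. Among the called probes 159 rose and 154 fell by 2 or more on the log2 scale, and 36 rose and 20 fell by 3 or more. For all 1925 called probes the 2 GlcAC values lay on one side of the 2 Glc values, as they did for 51.7% of all probes. The excess of lower calls depended on the processing: the counts were 758 higher and 833 lower after quantile normalization, 645 and 635 without Glc replicate 2, and 144 and 83 with treat, a limma test against the size threshold itself. The count of lower probes was 707 without GlcAC replicate 1 and 719 without GlcAC replicate 2. In all 4 fits that left out 1 array of these conditions, 408 higher and 477 lower probes kept their call. Array medians lay at 3.25 and 3.26 in GlcAC and 3.263 and 3.289 in Glc, and the 2 arrays of each of these conditions correlated across probes at 0.971 for GlcAC and 0.97 for Glc. Only genes with an informative symbol could be described, 2738 of the probes, of which 97 were called higher (3.54%) and 146 lower (5.33%). These shares are the background for every count within a gene list below.

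The list with the most genes called higher was that of the small heat shock proteins, chaperones that hold unfolded proteins in solution. Of 22 measured genes 14 rose and 1 fell, with a median log2 difference of 1.54. HSP17.9A (LOC4332357) stood at 9.54 and 9.51 in GlcAC, against 6.36 and 6.75 in Glc, a 7.86-fold increase (log2 difference 2.97 ± 0.18, SE, limma adjusted p = 2.03e-05). HSP17.4 (LOC4332360) stood at 8.19 and 7.99 in GlcAC, against 5.65 and 5.75 in Glc (2.39 ± 0.16). HSP17.7 stood at 7.63 and 7.68 in GlcAC, against 4.91 and 5.74 in Glc (2.33 ± 0.27). In each of these genes both GlcAC arrays lay above both Glc arrays, as for every probe called higher. HSP17.9B (LOC4325695) went the opposite way, at 5.08 and 4.94 in GlcAC, against 7.82 and 8.08 in Glc, which is 7.67-fold lower in GlcAC (-2.94 ± 0.24, limma adjusted p = 1.04e-04). In the gene order of the RefSeq assembly ASM3414082v1, HSP17.9B lies directly between HSP16.6 and HSP16.9C, which rose by 2.04 and 2.05 and are named here although outside the naming rule. HSP16.9A (1.49) and HSP16.9B (1.58), also outside the rule, follow HSP16.9C without a gene between them. Genes this similar can share probe sequence, which was not tested, so the members are not counted as independent.

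A few other genes of protein protection rose as well. Of 23 heat shock factor genes, which encode the transcription factors of heat shock genes, 4 rose and none fell (median 0.21). HSFA3 stood at 5.80 and 5.81 in GlcAC, against 3.37 and 3.47 in Glc (2.38 ± 0.19, limma adjusted p = 9.75e-05). HSFA4D (1.86), HSFA9 (1.23) and HSFB2A (1.17) were the others. Of the 4 larger heat shock protein genes 2 rose, CLPB1 (1.45 ± 0.22) and CLPB3 (1.32 ± 0.17), which encode ATP-driven proteins that pull aggregates apart. In the endoplasmic reticulum folding list of 25 genes 1 rose (4%) and 2 fell (8%), with a median of -0.07. These shares are near the 3.54% and 5.33% of all genes with an informative symbol. The co-chaperone gene ERDJ3A (1.07) rose, and the protein disulfide isomerase genes PDIL2-1 (-1.08) and PDIL1-4 (-1.04) fell. Each of these calls was lost in at least 2 of the 4 fits with 1 array left out.

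Some genes known from drought and cold responses were also higher. Of 12 genes of the DREB group, transcription factors that bind dehydration-responsive promoters, 3 rose and none fell (median 0.69). DREB1I (LOC4346220) was the strongest, at 8.39 and 8.25 in GlcAC, against 4.59 and 4.68 in Glc, which is 12.9-fold higher in GlcAC (3.69 ± 0.19, limma adjusted p = 6.62e-06). Its direct neighbour DREB1J rose by 1.66, and DREB1A by 1.90. Of 9 late embryogenesis abundant and dehydrin genes, whose proteins protect cells during drying, 3 rose and none fell, with a median of 0.92: Dhn1 (1.27 ± 0.16), Emp1 (1.16 ± 0.17) and RAB16C (1.12 ± 0.17). All 9 had positive differences. NAC068 (2.19) and NAC067 (1.95) rose among 10 NAC transcription factor genes (median 0.44), and WRKY62 (2.28) and WRKY24 (1.16) among 6 WRKY genes (median 0.74), with none lower in either list. ABA8OX1, which encodes an enzyme that inactivates abscisic acid, was the 1 called gene of 22 (4.55%) in the abscisic acid list, at 7.85 and 7.87 in GlcAC, against 6.28 and 6.19 in Glc (1.63 ± 0.24, limma adjusted p = 0.00278).

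**Figure D1:**
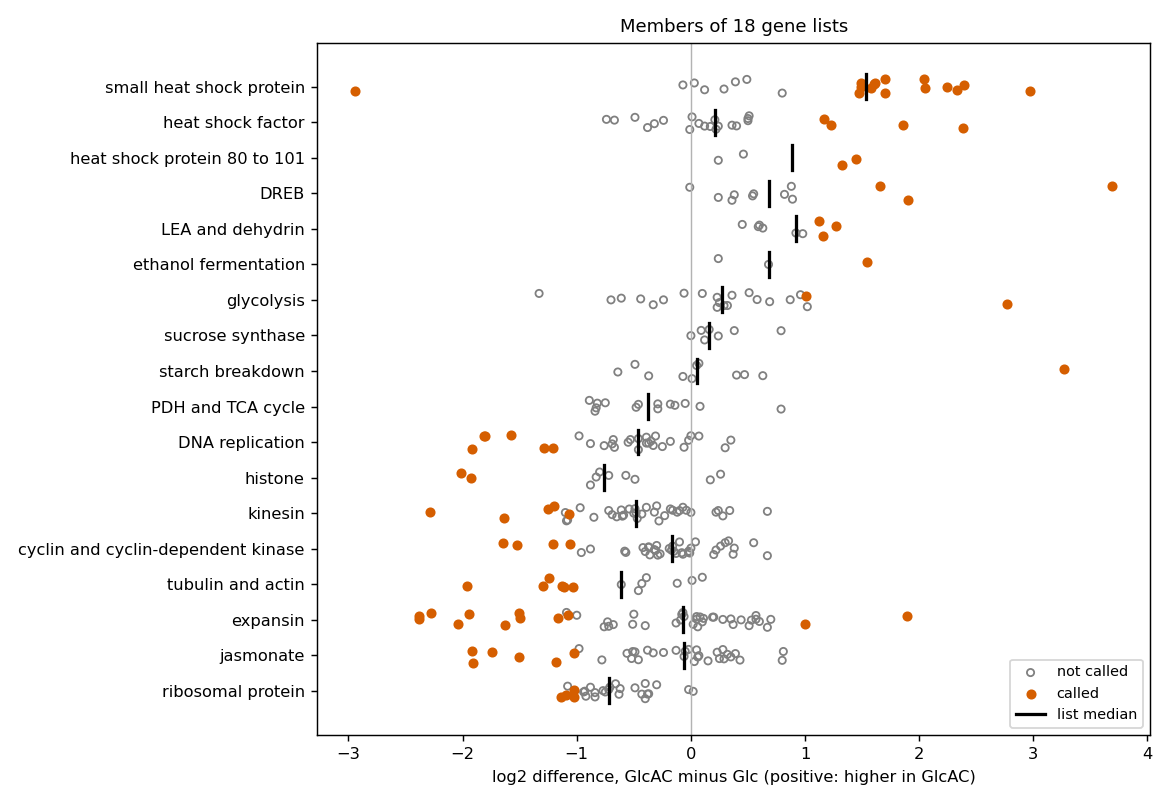
Log2 difference GlcAC minus Glc of each measured member of 18 gene lists. Filled points are called genes, open points are genes not called, bars mark list medians and points are spread vertically for visibility; the small heat shock genes have 14 filled points above 1 and HSP17.9B alone at -2.94, while the DNA replication, histone, kinesin and tubulin lists have filled points only below -1.

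The named gene with the largest increase was CAD7 (LOC4336968), 1 of the cinnamyl alcohol dehydrogenase genes, whose enzymes make lignin alcohols. CAD7 stood at 9.38 and 9.21 in GlcAC, against 5.35 and 5.66 in Glc, which is 13.9-fold higher in GlcAC (3.79 ± 0.26, limma adjusted p = 3.64e-05). CAD8A (LOC4346988), of the same family, had the largest decrease of any named gene, at 2.36 and 2.42 in GlcAC, against 5.91 and 5.54 in Glc, 10.1-fold lower in GlcAC (-3.33 ± 0.27, adjusted p = 1.04e-04). The lignin and phenylpropanoid list of 33 genes thus held members at both ends, with 2 higher, 4 lower and a median of -0.05. CCR1, cinnamoyl-CoA reductase, also rose (2.18 ± 0.30), and the phenylalanine ammonia-lyase gene PAL06 fell (-1.86 ± 0.37), a call that was lost without either Glc array or GlcAC replicate 2.

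Other leading increases came from varied gene families. The auxin-responsive gene SAUR39 (LOC9271092) stood at 5.51 and 5.77 in GlcAC, against 2.77 and 2.22 in Glc (3.14 ± 0.23). RH3 (LOC4324051), an RNA helicase gene, stood at 5.19 and 5.23 in GlcAC, against 2.18 and 2.11 in Glc (3.06 ± 0.17). The stress-associated zinc finger gene SAP5 (LOC4329544) stood at 9.35 and 9.39 in GlcAC, against 6.65 and 6.76 in Glc (2.66 ± 0.16), and the CCCH zinc finger gene OsC3H37 (LOC4339379) at 8.79 and 8.80 in GlcAC, against 6.18 and 6.19 in Glc (2.61 ± 0.16). These genes were chosen for a large increase and arrays that do not overlap, so the gap between conditions follows from the choice. Chitinases break down chitin, and xylanase inhibitors related to them block enzymes that attack the cell wall. A chitinase gene (LOC4351188) stood at 5.75 and 6.05 in GlcAC, against 2.93 and 3.06 in Glc (2.90 ± 0.34). RIXI (LOC4351194), a xylanase inhibitor gene with 3 genes between it and that chitinase gene, stood at 6.07 and 6.10 in GlcAC, against 3.14 and 4.01 in Glc (2.51 ± 0.30), with the 2 Glc arrays further apart than for the other genes. The neighbouring chitinase genes Cht1 (LOC4342115) and Cht3 (LOC4342114) fell instead, by 2.57 and 2.25. The calmodulin-like gene CML15 (LOC4338633) stood at 5.74 and 5.93 in GlcAC, against 3.53 and 3.36 in Glc (2.39 ± 0.17), the 1 called gene of 52 in its list. The brassinosteroid synthesis gene DWARF rose by 2.27, alone among 15 brassinosteroid genes. CML15 and DWARF are 1.92% and 6.67% of their lists, against 3.54% of all genes with an informative symbol called higher.

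**Figure D2:**
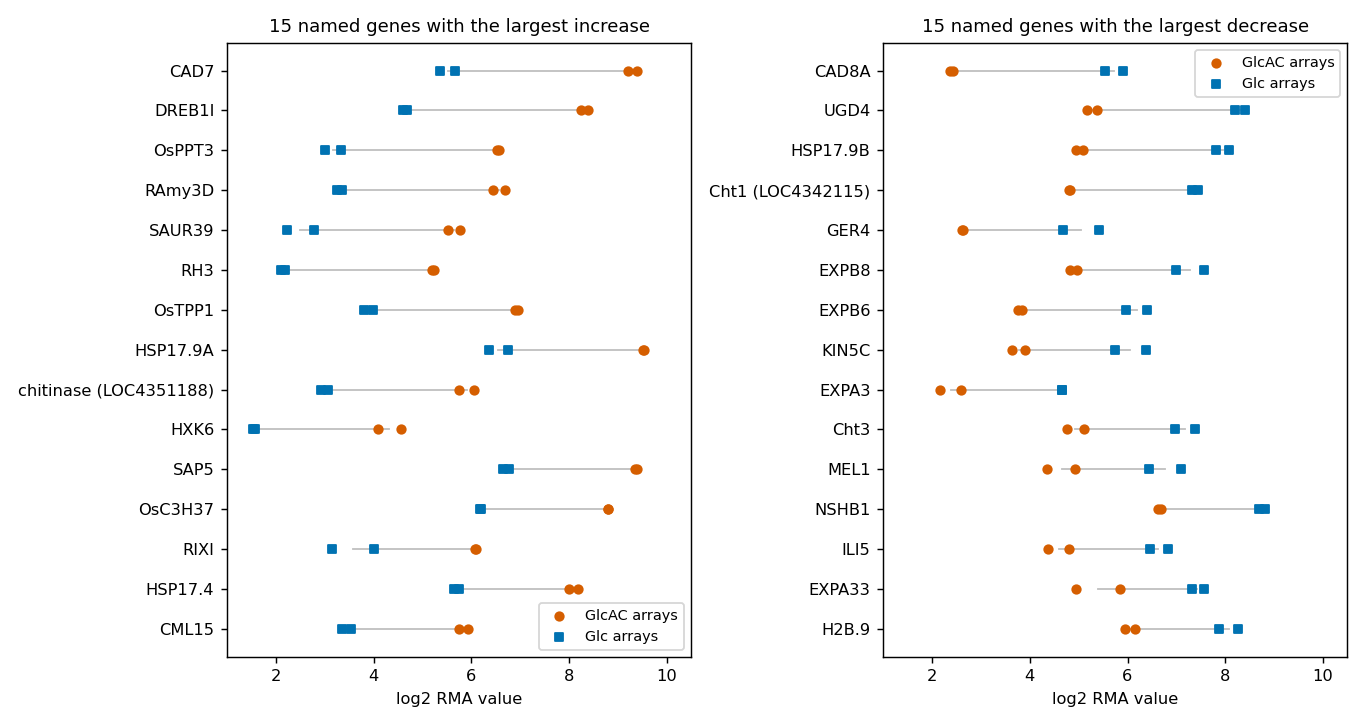
Log2 values on each GlcAC array (circles) and each Glc array (squares) for the 15 named genes with the largest and the 15 with the largest negative difference. Lines join the condition means. Only called genes whose circles and squares do not overlap could enter, so the gap in every row follows from the choice. Rows run from CAD7 (log2 difference 3.79) down to CML15 on the left and from CAD8A (-3.33) to H2B.9 (-2.01) on the right.

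Probes of genes without an informative symbol reached further. LOC4337274 stood at 8.77 and 8.72 in GlcAC, against 1.88 and 2.17 in Glc (6.72 ± 0.29, limma adjusted p = 4.30e-06), the largest difference of all called probes. LOC4333820 stood at 6.49 and 6.80 in GlcAC, against 1.45 and 1.53 in Glc (5.16 ± 0.31). Both genes were low in Glc but higher in Mtl, which was also in air. In Mtl LOC4337274 stood at 6.84 and 6.6 and LOC4333820 at 4.57 and 4.11. Their responses to the loss of air were larger with glucose than with mannitol. The difference was 4.92 ± 0.4 for LOC4337274 (limma adjusted p = 0.00186) and 3.22 ± 0.44 for LOC4333820 (adjusted p = 0.0128), called for both. The strongest decreases were LOC4340203, at 2.64 and 1.85 in GlcAC, against 6.61 and 6.46 in Glc (-4.29 ± 0.26), and LOC4326470, at 3.30 and 3.19 in GlcAC, against 7.02 and 7.29 in Glc (-3.91 ± 0.18). All 4 are outside the naming rule and were chosen after their values were seen.

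The ethanol fermentation genes all had positive differences, with a median of 0.68. Of 3 measured genes 1 was called, the alcohol dehydrogenase gene Adh2, which stood at 4.08 and 3.89 in GlcAC, against 2.34 and 2.55 in Glc (1.54 ± 0.20, 2.9-fold, limma adjusted p = 0.00158). The pyruvate decarboxylase gene PDC2 stood at 8.71 and 8.63 in GlcAC, against 7.99 and 7.98 in Glc. Its log2 difference of 0.68 ± 0.18 passed the p threshold (adjusted p = 0.0414) but not the size threshold. PDC2 was high in both conditions, and both GlcAC arrays still lay above both Glc arrays. PDC3 stood at 2.32 and 2.42 in GlcAC, against 2.16 and 2.11 in Glc (0.24 ± 0.20, adjusted p = 0.559). Other alcohol dehydrogenase genes carried no usable name and were not analysed here.

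Sugar supply and glycolysis showed single strong responders within lists that moved little. RAmy3D (LOC4345814), an alpha-amylase gene, stood at 6.68 and 6.45 in GlcAC, against 3.36 and 3.24 in Glc, which is 9.65-fold higher in GlcAC (3.27 ± 0.16, limma adjusted p = 6.12e-06). It was the 1 called gene of 11 in the starch breakdown list (median 0.05); AMY1.6 stood at 0.63 ± 0.17 (adjusted p = 0.0566) and the disproportionating enzyme gene DPE1 at -0.64 ± 0.16 (adjusted p = 0.0367). Of 22 glycolysis genes 2 rose and none fell (median 0.27). The hexokinase gene HXK6 (LOC4338010), whose enzyme phosphorylates glucose, stood at 4.09 and 4.56 in GlcAC, against 1.53 and 1.58 in Glc (2.77 ± 0.23, adjusted p = 1.32e-04). This locus also carries the name HXK7. Its level in Glc was close to the lowest 5% of each array, which ended at 1.01, so the size of its difference is uncertain. The pyruvate orthophosphate dikinase gene PPDK2, at 3.41 and 3.60 in GlcAC, against 2.56 and 2.43 in Glc, just passed the size threshold (1.01 ± 0.15) and no longer did so without Glc replicate 2 (0.94), without GlcAC replicate 2 (0.92) or after quantile normalization (0.98). HXK1 (1.02 ± 0.30, adjusted p = 0.0658) and the fructokinase gene FRK2 (-1.33 ± 0.42, adjusted p = 0.0877) were not called.

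The sucrose synthase genes, whose enzymes split sucrose without spending ATP, had no called member of 7 (median 0.16). SUS1 stood at 4.71 and 4.54 in GlcAC, against 3.93 and 3.75 in Glc (0.79 ± 0.19, limma adjusted p = 0.0339). None of 10 invertase genes was called either (median 0.20). The plastid phosphoenolpyruvate translocator gene OsPPT3 (LOC4327644) stood at 6.52 and 6.57 in GlcAC, against 3.33 and 3.01 in Glc, 10.4-fold higher in GlcAC (3.38 ± 0.18, adjusted p = 1.02e-05). OsPPT2, of the same family, stood at 2.80 and 3.49 in GlcAC, against 4.15 and 5.37 in Glc and was called lower (-1.62 ± 0.37), a call lost without Glc replicate 2 (-1.01) and without GlcAC replicate 1 (-1.27). They were the called genes among 24 sugar transport genes (median 0.01), 4.17% in each direction, near the shares of all genes with an informative symbol. OsTPP1 (LOC4330221), a trehalose-6-phosphate phosphatase gene, stood at 6.90 and 6.95 in GlcAC, against 3.81 and 3.99 in Glc, 8.14-fold higher in GlcAC (3.03 ± 0.17, adjusted p = 1.26e-05). Trehalose-6-phosphate is known as a signal of sugar status in plants. The other 7 genes of its list were not called, with a list median of 0.20.

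On the side of respiration, AOX1, the gene of the alternative oxidase that passes electrons to oxygen beside cytochrome oxidase, stood at 5.81 and 5.76 in GlcAC, against 7.45 and 7.00 in Glc, which is 2.72-fold lower in GlcAC (-1.44 ± 0.19, limma adjusted p = 0.00168). The cytochrome oxidase subunit gene COX5c stood at 4.80 and 4.82 in GlcAC, against 5.52 and 5.51 in Glc (-0.70 ± 0.21, adjusted p = 0.0789). None of 14 pyruvate dehydrogenase and tricarboxylic acid cycle genes was called, with 12 negative and 2 positive differences and a median of -0.38. Among them the succinate dehydrogenase genes SDH3-1 (-0.89 ± 0.20, adjusted p = 0.022), SDH3-2 (-0.84 ± 0.25, adjusted p = 0.072) and SDH5 (-0.82 ± 0.21, adjusted p = 0.0367) and the succinyl-CoA ligase gene SCS-beta (-0.83 ± 0.16, adjusted p = 0.0114) had the largest differences. In the list of mitochondrial porin and import genes, 10 in all, TIM9 (-1.93 ± 0.28) and VDAC5 (-1.03 ± 0.22) fell and MIA40 (1.09 ± 0.20) rose (median -0.58). The VDAC5 call was lost without Glc replicate 2 or either GlcAC array, and the MIA40 call without Glc replicate 1 or GlcAC replicate 2. NSHB1 (LOC4332166), a non-symbiotic hemoglobin gene, whose protein binds oxygen tightly and removes nitric oxide, stood at 6.69 and 6.63 in GlcAC, against 8.70 and 8.81 in Glc and was 4.26-fold lower in GlcAC (-2.09 ± 0.20, adjusted p = 2.43e-04). NSHB2 stood at 9.60 and 9.72 in GlcAC, against 10.38 and 10.51 in Glc (-0.78 ± 0.17, adjusted p = 0.0179) and was not called.

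Several genes of cell division were lower in GlcAC, and no member of these lists was called higher. Of 30 DNA replication genes 6 fell (median -0.46), and 27 had negative differences. The origin recognition gene OsORC6 stood at 4.77 and 4.97 in GlcAC, against 6.61 and 6.98 in Glc (-1.92 ± 0.25, limma adjusted p = 0.00149). The helicase subunit gene OsMCM3 stood at 1.46 and 1.57 in GlcAC, against 3.08 and 3.57 in Glc (-1.81 ± 0.27), OsRPA70b, a single-strand binding protein gene, at 3.02 and 3.14 in GlcAC, against 4.78 and 4.98 in Glc (-1.80 ± 0.18), and OsORC3 fell by 1.58. OsMCM3 and OsORC3 came close to the bottom of the range in GlcAC. Of 10 histone genes H2B.9 (LOC4339681), at 6.15 and 5.95 in GlcAC, against 7.88 and 8.25 in Glc (-2.01 ± 0.22), and H2B.2 (-1.93 ± 0.24) fell (median -0.76). Of 40 cyclin and cyclin-dependent kinase genes 4 fell (median -0.16), which is 10%, against 5.33% of all genes with an informative symbol. The kinase gene CDKB1-1, active around mitosis, stood at 5.42 and 5.74 in GlcAC, against 6.97 and 7.48 in Glc (-1.65 ± 0.22). The A-type cyclins CYCA3-1 (-1.52) and CYCA2-1 (-1.21) and the B-type cyclin CYCB2 (LOC4336670, -1.06) were the others. Without single arrays CYCA3-1 lost its call in 2 of 4 fits and CYCB2 in 3.

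Several genes of the cytoskeleton, which serves division and wall growth, were lower as well. Of 39 kinesin genes, which encode microtubule motors, 5 fell and none rose (median -0.48). KIN5C (LOC9271005), a spindle motor gene, stood at 3.91 and 3.63 in GlcAC, against 5.74 and 6.38 in Glc (-2.29 ± 0.24, limma adjusted p = 4.48e-04), while KIN7K (-1.64), KIN8B (-1.25) and KIN13B (-1.20) each lost the call in 3 of the 4 fits with 1 array left out. Of 13 tubulin and actin genes 6 fell (median -0.61). TUBB2 stood at 6.09 and 6.18 in GlcAC, against 8.14 and 8.05 in Glc (-1.96 ± 0.16, adjusted p = 1.03e-04) and TUBB6 at 3.85 and 3.93 in GlcAC, against 5.12 and 4.93 in Glc (-1.13 ± 0.17). TUBB1 (-1.30) lost the call in 3 of these fits and TUBA1 (-1.24) in all 4.

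Cell wall genes were mixed. Expansins loosen the wall so that cells can stretch. Of 46 expansin genes 2 rose and 10 fell, with a median of -0.06; the lower ones are 21.7% of the list, against 5.33% of all genes with an informative symbol. EXPB8 (LOC4331298) stood at 4.97 and 4.82 in GlcAC, against 6.99 and 7.57 in Glc (-2.38 ± 0.23, limma adjusted p = 2.58e-04). EXPB6 (LOC4349347) stood at 3.85 and 3.76 in GlcAC, against 5.97 and 6.40 in Glc (-2.38 ± 0.21). EXPA3 (LOC4338278) stood at 2.17 and 2.59 in GlcAC, against 4.65 and 4.66 in Glc (-2.28 ± 0.21), and its direct neighbour EXPA33 (LOC4338279) at 5.84 and 4.94 in GlcAC, against 7.56 and 7.31 in Glc (-2.04 ± 0.32). Both expansins that rose were of the expansin-like A family, EXLA1 (1.89 ± 0.15) and EXLA2 (1.0), while EXLA3 of that family fell (-1.51); these 3 are outside the naming rule and were chosen after their values were seen. UGD4 (LOC4352146), whose UDP-glucose dehydrogenase makes a precursor of wall polysaccharides, stood at 5.38 and 5.17 in GlcAC, against 8.40 and 8.20 in Glc, 8.15-fold lower in GlcAC (-3.03 ± 0.32, adjusted p = 4.43e-04). Its direct neighbour UGD5 fell by 1.02, a call lost without Glc replicate 2 (-0.81) or either GlcAC array. These were the called genes of 21 in the xylan list (median -0.46). Of 34 cellulose synthase superfamily genes 2 fell (median -0.34), CESA1 (-1.37 ± 0.16), a catalytic subunit of cellulose synthase, and CSLC2 (-1.26 ± 0.25), which lost its call without Glc replicate 2 or either GlcAC array. These 2 genes are 5.88% of that list, close to the share of all genes with an informative symbol.

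Jasmonate, water and nitrogen genes held further decreases. Of 35 jasmonate genes 6 fell and none rose (median -0.06). Among them AOC3, an allene oxide cyclase gene, stood at 5.52 and 5.61 in GlcAC, against 7.33 and 7.65 in Glc (-1.92 ± 0.24, limma adjusted p = 0.00121). The lipoxygenase gene LOX1.1 stood at 3.67 and 4.10 in GlcAC, against 5.68 and 5.89 in Glc (-1.91 ± 0.19). OsOPR5, of the oxophytodienoate reductase family, stood at 6.31 and 6.41 in GlcAC, against 7.85 and 7.89 in Glc (-1.51 ± 0.19). The list was matched by symbol, and whether LOX1.1 and OsOPR5 take part in jasmonate synthesis was not tested. The repressor gene TIFY3 fell by 1.74. Of 27 aquaporin genes 4 fell (14.8%, median 0.02), among them NIP1-1, at 5.18 and 5.13 in GlcAC, against 7.15 and 7.10 in Glc (-1.97 ± 0.24), and PIP2-1, at 7.24 and 7.26 in GlcAC, against 8.59 and 8.57 in Glc (-1.33 ± 0.16). Among 16 nitrogen transport genes the ammonium transporter gene AMT1 (-1.70 ± 0.28) and the nitrate transport partner gene NAR2.2 (-1.67 ± 0.21) fell. The glutamine synthetase genes GLN1-1 (-1.33 ± 0.29, adjusted p = 0.0217) and GLN2 (-1.05 ± 0.21) were called lower, and both lost the call in each of the 4 fits with 1 array left out. The superoxide dismutase gene SODCC.1 (-1.24 ± 0.20) and the ascorbate peroxidase gene APX2 (-1.23 ± 0.22), which remove reactive oxygen, fell among 17 antioxidant genes (median -0.46). Without Glc replicate 2 SODCC.1 was at -0.98 and APX2 lost its call, as it did without GlcAC replicate 1. In the other direction 3 glutaredoxin genes rose, GRXS5 (1.66), GRXS2 (1.63) and GRXC4 (1.40), while the glutathione transferase gene GSTF2 fell (-1.57), in a list of 28 with a median of 0.11.

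Nearly every ribosomal protein gene had a small negative difference. Of 27 genes 4 were called lower and none higher, 26 differences were negative and the median was -0.72. RPS10 stood at 7.64 and 8.07 in GlcAC, against 8.88 and 9.11 in Glc (-1.14 ± 0.23, limma adjusted p = 0.0153). After quantile normalization none of the genes was called and the median was -0.47, so these calls depend on the scaling of the arrays. Of the remaining leading decreases, GER4 (LOC4327911) stood at 2.64 and 2.61 in GlcAC, against 4.68 and 5.42 in Glc (-2.42 ± 0.32), MEL1 (LOC4334449) at 4.36 and 4.93 in GlcAC, against 6.43 and 7.10 in Glc (-2.12 ± 0.34), and the helix-loop-helix gene ILI5 (LOC4330725) at 4.38 and 4.81 in GlcAC, against 6.45 and 6.82 in Glc (-2.04 ± 0.37), which lost its call without Glc replicate 2 or GlcAC replicate 1. Some lists had no called gene, which does not show that they were unchanged. They include 37 CIPK and CBL genes (median 0.14), 34 cytokinin genes (0.13), 16 gibberellin genes (-0.00), 12 amino acid catabolism genes (0.36) and 15 proteasome genes, all of the last with negative differences (-0.28). In the ethylene list of 12 genes the receptor gene ERS1 alone was called, lower (-1.02 ± 0.19), and the call was lost without either Glc array, without GlcAC replicate 1 and after quantile normalization.

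Markers of tissues that an embryo sample can hold were read beside these results. The oleosin gene OLE18 of oil bodies, found in embryo and aleurone, stood at 7.15 and 7.32 in GlcAC, against 6.73 and 6.48 in Glc (0.63 ± 0.17, limma adjusted p = 0.0544). The summed log2 value of 8 endosperm storage genes was 17.9 and 20.0 in GlcAC, against 18.0 and 17.8 in Glc, with the lowest genes at 1.05 and 1.14 in GlcAC and 0.92 and 0.98 in Glc; the glutelin gene GLUA-1 (1.12 ± 0.28, adjusted p = 0.0367) was called higher but lost the call in every fit with 1 array left out. The sums of 6 green shoot genes were 14.1 and 13.5 in GlcAC, against 14.0 and 13.4 in Glc, with none called. The sums of 3 root genes were 12.1 and 12.2 in GlcAC, against 14.8 and 13.9 in Glc, with NAR2.2 called lower. The sums of 5 B-type cyclins, which mark dividing cells, were 17.2 and 18.5 in GlcAC, against 20.1 and 19.8 in Glc, with 1 called lower. Of 2 aleurone genes AMY1.1 (0.40 ± 0.25) was near the bottom of the range, and the lipid transfer protein gene LTP, known from other tissues too, stood at 7.30 and 7.48 in GlcAC, against 9.12 and 9.48 in Glc (-1.91 ± 0.27). The called root marker NAR2.2 and the called B-type cyclin CYCB2 (LOC4336670) are themselves among the decreases described above, so they add no separate evidence. The part of tissue make-up in those decreases was not tested. Fewer cells of a type and less RNA per cell cannot be told apart in such samples.

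The same loss of air was then set beside that without a usable sugar, MtlAC against Mtl, which shares no array with GlcAC and Glc. With mannitol 12.2% of probes were called, 1304 higher (3.56%) and 3171 lower (8.65%), more in both directions than with glucose; after quantile normalization the counts were 1787 and 2552. Of the probes called higher with glucose 376 were also called higher with mannitol, 51.2% of the glucose calls and 28.8% of the mannitol calls. Of those called lower 874 were shared, 73.4% of the glucose calls and 27.6% of the mannitol calls. Only 11 probes were called in opposite directions, 9 of them higher with glucose. The probes called higher with glucose had a median difference of 1.44 there and 1.03 with mannitol, and those called lower -1.36 and -1.60. These probes were chosen by their response with glucose, which can enlarge the glucose medians, so the medians do not show which response was stronger. Over all probes the SD of the log2 differences was 0.57 with glucose and 0.78 with mannitol. The difference between the sugars, by limma's test of it, was called for 1.15% of all probes and 7.84% of the probes called with glucose. The 15 named genes with the largest increase and the 15 with the largest decrease were chosen by the response with glucose. That response is part of the tested difference, so the choice can raise their counts. The difference was called for 4 of the 15 with the largest increase and 3 of the 15 with the largest decrease. Among the others, CAD7 was at 3.79 ± 0.26 with glucose and 4.19 ± 0.26 with mannitol, HSP17.9A at 2.97 ± 0.18 and 2.99 ± 0.18, DREB1I at 3.69 ± 0.19 and 3.23 ± 0.19, and HSP17.9B at -2.94 ± 0.24 and -3.05 ± 0.24. Further apart without being called were SAUR39, at 3.14 ± 0.23 with glucose and 2.03 ± 0.23 with mannitol, and HXK6, at 2.77 ± 0.23 and 1.51 ± 0.23. Small heat shock genes had 15 of 22 called higher and 1 lower with mannitol. DNA replication genes had 1 of 30 lower with mannitol and 6 with glucose, with medians of -0.27 and -0.46. Ribosomal protein genes had 19 of 27 lower with mannitol and 4 with glucose, with medians of -1.37 and -0.72. The difference between the sugars was called for 1 of the 30 and 2 of the 27. Each response is measured from the air level with the same sugar, so these counts do not show which level differed. These list counts were not tested against each other.

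**Figure D3:**
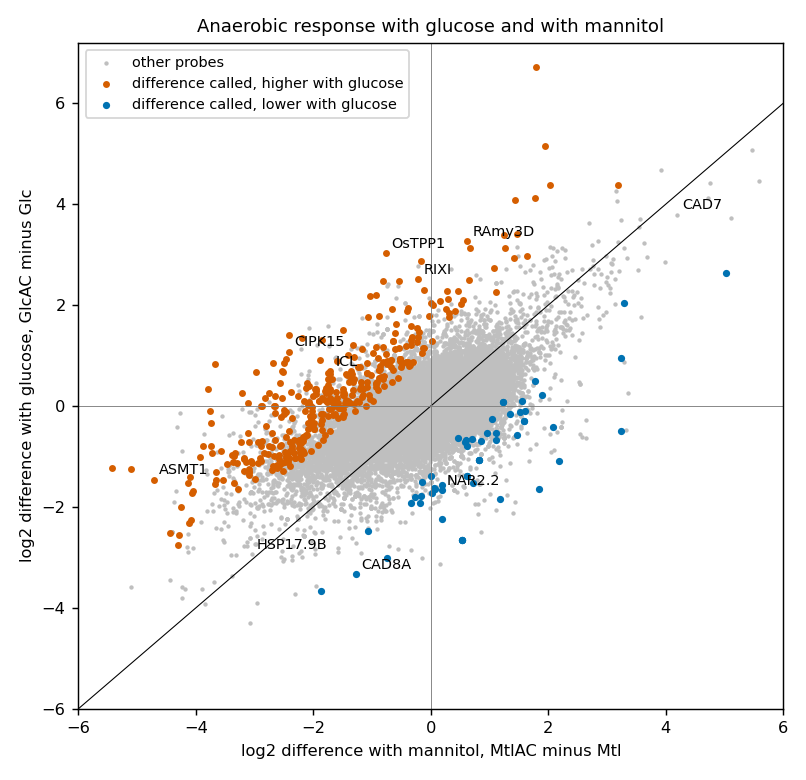
Log2 difference of each of the 36643 probes without air with glucose (vertical axis) against that with mannitol (horizontal axis). Coloured points are the 423 probes whose responses differed between the sugars by the test, 369 higher and 54 lower with glucose, and the diagonal marks equal responses; CAD7 and HSP17.9B lie by the diagonal, OsTPP1 and RAmy3D above it and CAD8A below it.

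The difference between both responses was tested directly. It was called for 423 probes (1.15%), 369 with the difference higher with glucose (1.01%) and 54 lower (0.147%), and the count ranged from 72 to 214 when 1 of the 8 arrays was left out. Of the 369 probes 72 were called higher with glucose, and 268 were called lower with mannitol. OsTPP1 had the largest difference between responses among named genes. It stood at 6.90 and 6.95 in GlcAC, 3.81 and 3.99 in Glc, 5.99 and 6.10 in MtlAC and 6.80 and 6.80 in Mtl, with Glc lowest of these; GlcDNP was also low, at 4.42 and 4.07. The response was 3.03 ± 0.17 with glucose and -0.76 ± 0.17 with mannitol (difference 3.78 ± 0.24, limma adjusted p = 0.00105). RAmy3D stood at 6.68 and 6.45 in GlcAC, 3.36 and 3.24 in Glc, 8.40 and 8.48 in MtlAC and 7.82 and 7.81 in Mtl. Its level was thus lowest with glucose in air, and its response was 3.27 ± 0.16 with glucose and 0.62 ± 0.16 with mannitol (difference 2.65 ± 0.23, adjusted p = 0.00186). The kinase genes CIPK15 (difference 3.50 ± 0.47, adjusted p = 0.0125) and CIPK14 (3.22 ± 0.40) were dim in Glc, where CIPK15 stood at 1.31 and 0.99. Their differences came with responses of 1.08 and 0.69 with glucose, neither called, and -2.42 and -2.53 with mannitol. ASMT1, a gene of melatonin synthesis, was lower without air with both sugars, by -1.46 ± 0.22 with glucose and -4.72 ± 0.22 with mannitol (difference 3.25 ± 0.31). The strigolactone receptor gene D14 was at 1.50 ± 0.26 with glucose and -1.50 ± 0.26 with mannitol (difference 3.00 ± 0.37). In the other direction, ERG1 (-1.41), OsRPA70b (-1.52), Nrat1, which transports aluminium (-1.73), NAR2.2 (-1.85) and CAD8A (-2.06) had the most negative differences, and these 5 calls and that of CIPK15 were each lost in at least 4 of the 8 fits with 1 array left out.

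Loss of air was last compared with the uncoupler DNP in air, both with glucose. This comparison shares the GlcAC arrays with the one against Glc, so the values of the members are given side by side. Of all probes 5.26% were called: GlcAC was higher than GlcDNP at 1454 (3.97%) and lower at 475 (1.3%); after quantile normalization the counts were 1193 and 707. The fermentation genes differed between them. PDC2 stood at 8.71 and 8.63 in GlcAC, 6.21 and 6.51 in GlcDNP and 7.99 and 7.98 in Glc, which is 4.95-fold higher in GlcAC than in GlcDNP (2.31 ± 0.18, limma adjusted p = 8.45e-05). Adh2 stood at 4.08 and 3.89 in GlcAC, 1.59 and 1.70 in GlcDNP and 2.34 and 2.55 in Glc (2.33 ± 0.20, adjusted p = 1.77e-04 over GlcDNP). PDC3 did not pass the test (-0.22 ± 0.20, adjusted p = 0.579). For PDC2 and Adh2 the order of the levels was thus GlcAC, then Glc, then GlcDNP, without overlap between arrays.

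The named genes furthest above GlcDNP were CAD7, RIXI, OST4B, a chitinase gene and SAUR39. CAD7 stood at 4.70 and 4.51 in GlcDNP (4.69 ± 0.26, limma adjusted p = 1.39e-05), and RIXI at 1.66 and 2.28 in GlcDNP (4.12 ± 0.30). The oligosaccharyltransferase gene OST4B stood at 6.13 and 6.03 in GlcAC, 2.77 and 1.99 in GlcDNP and 6.36 and 7.08 in Glc (3.70 ± 0.37), with GlcDNP lowest of these. The chitinase gene (LOC4351188) was at 3.28 ± 0.34 and SAUR39 at 3.09 ± 0.23. The named genes furthest below GlcDNP were KOCIII (-2.18 ± 0.20), TULP10 (LOC4339597, -2.13 ± 0.28), RAB16C (-2.04 ± 0.17), AOX1 (-1.96 ± 0.19) and DREB1H (-1.89 ± 0.18). AOX1 stood at 5.81 and 5.76 in GlcAC, 7.84 and 7.65 in GlcDNP and 7.45 and 7.00 in Glc, with GlcAC lowest. Of 22 small heat shock genes 5 were called lower in GlcAC than in GlcDNP and none higher (median -0.68). HSP17.9A was high under both treatments: it stood at 9.54 and 9.51 in GlcAC, 10.11 and 10.29 in GlcDNP and 6.36 and 6.75 in Glc, and its difference between GlcAC and GlcDNP was -0.67 ± 0.18 (adjusted p = 0.0468), below the size threshold. RH3 likewise stood at 5.19 and 5.23 in GlcAC, 5.19 and 5.33 in GlcDNP and 2.18 and 2.11 in Glc (-0.05 ± 0.17 between GlcAC and GlcDNP, adjusted p = 0.907).

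**Figure D4:**
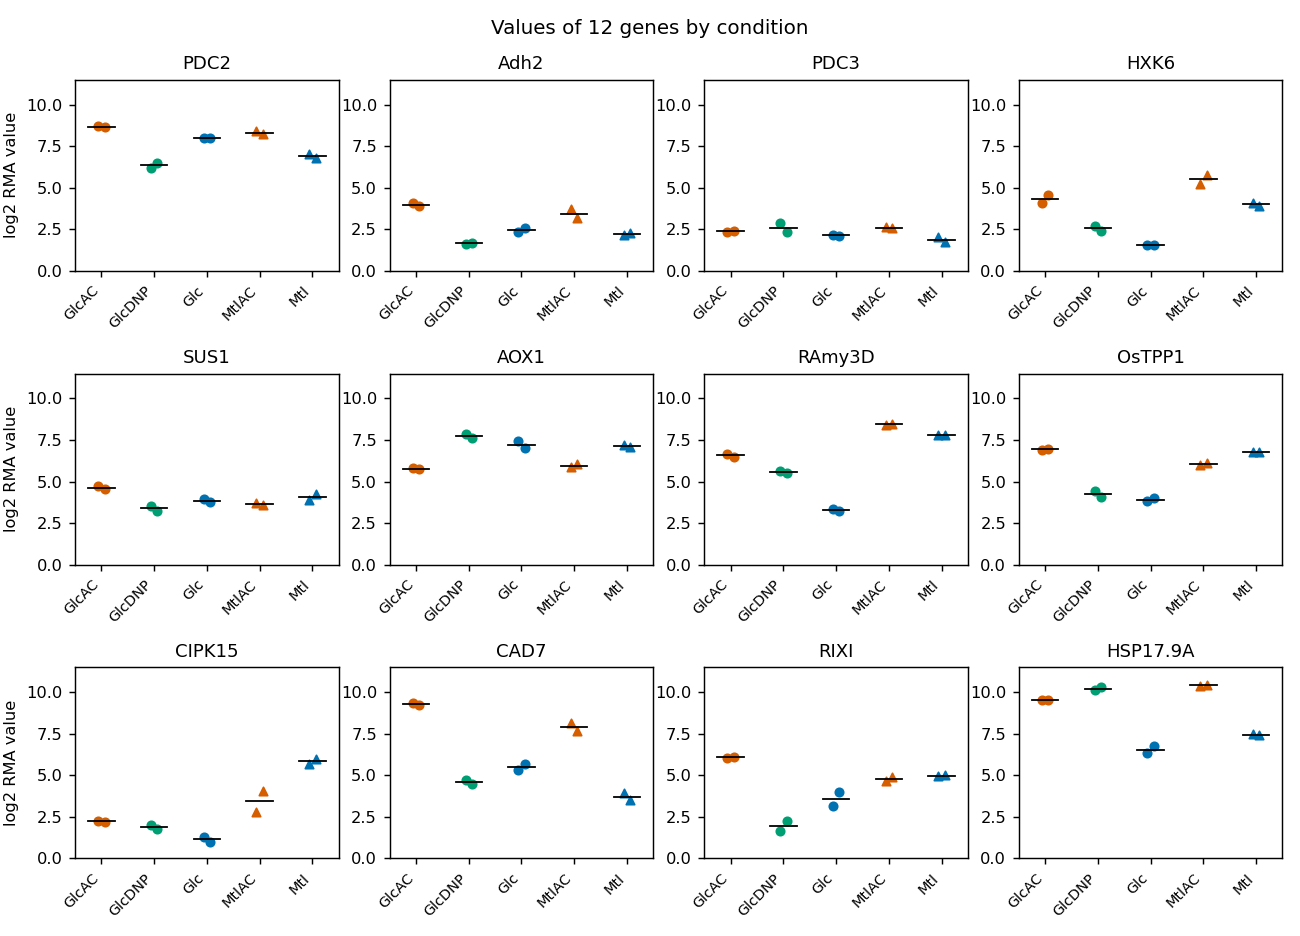
Log2 values of 12 genes on both arrays of 5 conditions, with condition means as bars; circles are glucose, triangles mannitol. PDC2, Adh2, CAD7 and RIXI are highest in GlcAC and lower in GlcDNP than in Glc, AOX1 is lowest in GlcAC, and HSP17.9A has means of 9.53 in GlcAC, 10.20 in GlcDNP and 6.55 in Glc.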

How the data were processed

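Total RNA of rice embryos was hybridised to Affymetrix RJpGene arrays, with 12 arrays for 6 conditions. The deposited log2 values are RMA values at the core level from the Expression Console software, per the labels. RMA is designed to remove background, make the arrays' intensity distributions alike and give 1 value per probe set. The spread of the deposited values still differed. Its SD was 1.767 and 1.774 in GlcAC, 1.808 and 1.857 in Glc and 1.664 and 1.673 in GlcDNP. With mannitol the SD was 1.668 and 1.682 in MtlAC and 1.848 and 1.833 in Mtl. Per the submitters' processing notes, Affymetrix Power Tools was used. Software versions, the genome build and the annotation: not given in the sources used here. Base 2 of the logarithm is inferred from the range of the values, -0.49 to 13.12. The number of arrays limits the precision.

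Probes were named through the platform annotation and the RefSeq gene table of assembly ASM3414082v1: 24161 had 1 gene, 90 had several, 12392 are unnamed here, and 2738 had an informative symbol. All 24161 matched the gene table. Differences were fitted with limma 3.58.1 in R 4.3.3 over all 12 arrays with 1 term per condition (6 residual degrees of freedom), with Benjamini-Hochberg adjustment over 36643 probes. A call needed an adjusted p under 0.05 and a log2 difference of at least 1. The size threshold was applied because the arrays may be technical replicates. On data simulated for GlcAC minus Glc over 36643 probes, 57 of 100 changes of 1.5 and 93 of 100 changes of 3.0 were called, with 8 false calls. The simulated noise was independent and normal, with the spread between arrays of each probe. These counts therefore do not cover differences between pools of embryos. Only these changes were simulated, far fewer than the 1925 probes called in the data. The adjustment depends on the share of changed probes, so the recovered share need not hold for the data.

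The comparison, its 60 gene lists and the tests were chosen with earlier results of these data known. Lists were matched by symbol patterns and hold only members with a usable name. Named are the 15 called genes at each end of the difference whose arrays do not overlap, and every fermentation gene. Up to 4 members per list with the largest absolute difference are named too. So are 5 genes each way for the difference between sugars and for GlcAC over GlcDNP. Genes outside this rule are marked, except the tissue markers, which came from lists of their own. The 5th percentile of the arrays, 1.00 to 1.16, served as a guide to dim probes. Alternatives were quantile normalization, a shift of each array to 1 median, dim probes left out, trended and robust variances, the compared arrays alone, treat, no size threshold, a replicate block, and each array left out. No label ties a replicate number to a batch. Deviations of same-numbered arrays from their condition means correlated between conditions at -0.021 to 0.087, under the 0.1 taken as pairing.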

Additional observations from a re-analysis of the deposited data

Results flagged for a closer look

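The response to the loss of air differed between glucose and mannitol at 423 probes by limma's test of the difference, and these probes are given as values. Among the genes named, the difference (response with glucose minus response with mannitol, log2) was positive for OsTPP1 (3.78), CIPK15 (3.50), ASMT1 (3.25), CIPK14 (3.22), D14 (3.00), RIXI (2.73), RAmy3D (2.65), CIN2 (2.47), ICL (2.40), MS (2.32), GRXS2 (2.22), OsPPT3 (2.13), Beta-ETF (1.98), OAT (1.85), Cht3 (1.83), DWARF (1.81), Cht1 at LOC4342115 (1.71), OsTPP2 (1.53) and CIPK9 (1.18). It was negative for CAD8A (-2.06), NAR2.2 (-1.85), Nrat1 (-1.73), OsRPA70b (-1.52) and ERG1 (-1.41).

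The genes came to their difference in unlike ways. OsPPT3 was at 3.38 with glucose and 1.25 with mannitol, both higher without air. Cht1 was at -2.57 with glucose and -4.28 with mannitol and Cht3 at -2.25 with glucose and -4.08 with mannitol, both lower without air with either sugar. The glyoxylate cycle genes ICL, isocitrate lyase, and MS, malate synthase, were at 0.69 with glucose and -1.72 with mannitol and at 0.35 with glucose and -1.97 with mannitol; with glucose neither was called. The ornithine aminotransferase gene OAT was at 0.54 with glucose and -1.31 with mannitol and the cell wall invertase gene CIN2 at 0.41 with glucose and -2.07 with mannitol. NAR2.2 was at -1.67 with glucose and 0.18 with mannitol. With 2 arrays per condition no array can be tested as standing apart from its partners.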

How the results depend on the processing

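For GlcAC minus Glc, the count of 1925 stayed between 1591 and 1983 under quantile normalization, a median shift, dim probes left out, trended and robust variances and the 4 compared arrays alone, and lay between 1218 and 1714 with 1 array left out. It was 3077 without the size threshold and 227 with treat, which tests against that threshold. With the replicate block it was 1906, and for a single named gene the block cost 1 call, GLUA-1. Counts for the other comparisons also moved with these 2 thresholds: MtlAC minus Mtl gave 8812 without the size threshold and 877 with treat (4475 as reported, 3608 to 4505 with 1 array left out), and GlcAC minus GlcDNP gave 3176 and 176 (1929 as reported, 1216 to 1665). The difference between sugars, 423 as reported, was the least stable, at 236 after quantile normalization, 818 with dim probes left out, 707 with trended and robust variances, 17 with treat, 363 with the replicate block and 72 to 214 with 1 array left out. The replicate block gave 4502 for MtlAC minus Mtl and 1947 for GlcAC minus GlcDNP. Of 118 named genes called for GlcAC minus Glc, 86 kept the call under all 9 alternatives run for single genes, and none of the 251 named genes changed direction in a called value. For GlcAC over GlcDNP all 10 named genes kept the call, and for the difference between sugars 4 of 10 did. With the small number of arrays, genes without a call are not shown to be unchanged.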
